A study of Mus musculus with 12 samples.

Results

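A set of 10 genes of the FOXO and quiescence programme, out of 18193 genes measured, was followed in mouse embryonic fibroblasts that lack TSC2. The genes were Foxo1, Foxo3, Bcl6, Crebrf, Cited2, Ccng2, Trp53inp1, Calcoco1, Klhl24 and Tcp11l2, and each probe set whose only annotated gene symbol is one of these 10 was taken, which gave 26 of the 45037 probe sets tested. The genes were chosen by their log2 change with rapamycin in these same arrays. Their rapamycin values, and whether a call held under other settings, are therefore a description and not a test. One further probe set, 1444226_at, lists 2 symbols, Foxo3 among them, and was left out. RNA was measured on 12 Affymetrix MOE430 v2 arrays, 3 biological replicates in each of 4 groups. In the first experiment TSC2-/- fibroblasts received DMSO vehicle or 20 nM rapamycin for 14 h. In the second experiment confluent TSC2-/- fibroblasts were exposed for 10 h to adenovirus that expressed either PGC-1alpha or, as control, GFP, and RNA was taken after another 14 h. All cells grew in DMEM with 10% CCS, and no cells with intact TSC2 were analysed here. Whether the fibroblasts came from 1 clone is not stated in the labels.

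FOXO proteins are forkhead transcription factors that bind DNA elements related to GTAAACA and switch on genes of cell cycle exit, autophagy and stress resistance. Insulin and growth factor signalling through PI3K and AKT phosphorylates them, and the phosphorylated proteins leave the nucleus. TSC2, together with TSC1, holds back the kinase complex mTORC1, which rapamycin blocks. In cells without TSC2, mTORC1 stays active and a feedback loop from it dampens PI3K and AKT signalling. Quiescence is a reversible arrest of the cell cycle, and PGC-1alpha is a transcriptional coactivator best known for mitochondrial genes.

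The 2 experiments had been normalised apart, so levels were compared only within each of them. The exception was the choice of a gene's brightest probe set, which used the mean log2 intensity over all 12 arrays. Replicate arrays correlated at r of at least 0.997 over all probe sets. The GFP replicate 3 array stood farthest from its group, with SDs of its log2 differences of 0.155 and 0.167 against the other GFP arrays. Its differences from the PGC-1alpha arrays had SDs of 0.142 to 0.151. The mean log2 intensity of the bacterial spike control probe sets was 0.19 higher in the rapamycin arrays (10.62 to 10.83) than in the vehicle arrays (10.50 to 10.60). It was 0.17 lower in the PGC-1alpha arrays (10.21 to 10.51) than in the GFP arrays (10.39 to 10.67), and these groups overlapped. The controls were read from the normalised values, and whether RNA per cell shifted was not tested. With the arrays scaled to these controls, the median change of all probe sets was -0.19 for rapamycin and 0.16 for PGC-1alpha on the log2 scale, against -0.00 in both as deposited. The ratio of 3′ to 5′ Gapdh signal, a measure of RNA integrity, was 0.807 to 0.826 with rapamycin and 0.840 to 0.861 with vehicle. In the second experiment the Gapdh ratio was 0.865 to 0.879 for the GFP arrays and 0.894 to 0.905 for the PGC-1alpha arrays. The part of these differences in the results was not tested. All 12 fibroblast markers were measured, and Lum was dim, at 34.6 to 38.7 with vehicle. Their summed intensity was 66663 to 69066 with vehicle and 70829 to 75649 with rapamycin, and 6 of them rose with rapamycin (2 rose and 2 fell with spike scaling). The summed epithelial markers read 2281 to 2320 with vehicle and 2269 to 2339 with rapamycin, and the macrophage markers 502 to 542 and 544 to 556. Each marker was read by its brightest probe set. Of the markers of other cell types, 1 of 6 for macrophages, 0 of 5 for endothelium and 2 of 6 for epithelium rose with rapamycin. For skeletal muscle and neural cells 0 of 5 each rose, and 1 each for epithelium and muscle fell. The macrophage marker Csf1r was not called by this rule, though 2 of its 3 probe sets were called higher. Of the neural marker Map2, 1 of 4 probe sets was called lower. Of all 18193 genes, each read by its brightest probe set, 11.3% rose and 18.0% fell with rapamycin (3.32% and 46.1% with spike scaling). None of any marker list passed the test with PGC-1alpha, against 1.41% of all genes higher and 0.594% lower. In bulk RNA, fewer cells of a type and less RNA per cell cannot be told apart.

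The promoters of the genes were examined for the letters a FOXO protein binds. RefSeq promoters of mouse build GRCm38.p6 matched 8 of the 10 genes, all but Klhl24 and Trp53inp1, giving 9 promoters since Bcl6 had 2, and the 250 bases before each start were searched on both strands. The FOXO element GTAAACA, or TGTTTAC on the other strand, was in 0 of the 9, and in 3.17% of 32851 promoters of all genes. The shorter core TAAACA, or TGTTTA, was likewise in 0 of 9, against 12.0% of all promoters. The E-box CACGTG, which reads the same on both strands and is bound by MYC, MAX and the autophagy regulator TFEB among others, was in 3 of 9, those of Crebrf, Bcl6 (1 of its 2) and Cited2, against 6.02% of all. The absence of a match says only that these letters are not in this window. The Crebrf promoter held 2 E-boxes, 125 to 120 and 14 to 9 bases before the start. The promoters of Crebrf, Calcoco1, Tcp11l2 and Ccng2, the matched genes with the largest rapamycin changes, are printed 5′ to 3′ along the strand of the gene, with E-boxes in capitals, since they show how GC-rich and how different in letters these starts are. Their GC content was 72.0% for Crebrf, 57.6% for Calcoco1, 57.2% for Tcp11l2 and 59.6% for Ccng2, with a median of 52.4% over all promoters. They lie at chr17:26715400-26715649 on the plus strand (Crebrf), chr15:102722179-102722428 on the minus strand (Calcoco1), chr10:84576697-84576946 on the plus strand (Tcp11l2) and chr5:93267323-93267572 on the plus strand (Ccng2).
Crebrf: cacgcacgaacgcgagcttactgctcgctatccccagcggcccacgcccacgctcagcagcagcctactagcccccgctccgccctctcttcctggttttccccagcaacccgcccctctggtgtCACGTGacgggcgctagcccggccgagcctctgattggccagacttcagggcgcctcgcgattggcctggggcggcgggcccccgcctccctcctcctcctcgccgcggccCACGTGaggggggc
Calcoco1: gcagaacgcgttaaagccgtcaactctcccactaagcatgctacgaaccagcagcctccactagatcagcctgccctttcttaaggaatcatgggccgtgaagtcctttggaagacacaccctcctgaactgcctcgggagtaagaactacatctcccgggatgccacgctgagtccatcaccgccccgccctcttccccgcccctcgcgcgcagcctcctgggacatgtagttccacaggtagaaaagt
Tcp11l2: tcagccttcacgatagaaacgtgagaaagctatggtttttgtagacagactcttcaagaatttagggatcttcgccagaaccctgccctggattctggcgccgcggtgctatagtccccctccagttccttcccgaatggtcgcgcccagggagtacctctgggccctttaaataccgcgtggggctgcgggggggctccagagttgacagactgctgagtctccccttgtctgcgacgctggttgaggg
Ccng2: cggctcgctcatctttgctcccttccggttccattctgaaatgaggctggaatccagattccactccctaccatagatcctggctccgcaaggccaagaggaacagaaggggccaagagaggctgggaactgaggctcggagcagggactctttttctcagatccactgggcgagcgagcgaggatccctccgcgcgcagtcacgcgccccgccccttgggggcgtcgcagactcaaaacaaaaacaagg

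With rapamycin, Klhl24, Crebrf, Calcoco1 and Tcp11l2 each had a probe set at least 2-fold above vehicle, Ccng2 and Trp53inp1 each had one between 1.5-fold and 2-fold above it, and Foxo3 and Foxo1 rose less. Neither Bcl6 nor Cited2 had a probe set past the threshold, so for these 2 genes the description as rapamycin-induced does not hold in the fit as deposited. Of the 26 probe sets, 18 from 8 genes were called higher and 0 lower with limma at an adjusted p under 0.05. Over all probe sets 11.5% were called higher and 14.0% lower, and nothing is read from the comparison since rapamycin values chose the genes. In 21 of the 26 probe sets all 3 rapamycin arrays lay above all 3 vehicle arrays, a pattern that 18.0% of all probe sets showed, and in 1 they lay below, against 19.9%. A rise of at least 2-fold was seen in 8 member probe sets and in 0.142% of all. The median change of the 26 was 0.59 on the log2 scale, with a range of -0.13 to 2.32, against -0.00 over all probe sets. With spike scaling 15 member probe sets were called higher and 2 lower, against 3.32% and 46.1% of all genes by their brightest probe set. Rapamycin replicate 2 was the highest of its group in 17 of the 26 member probe sets, and in 43.5% of all.

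**Figure D1:**
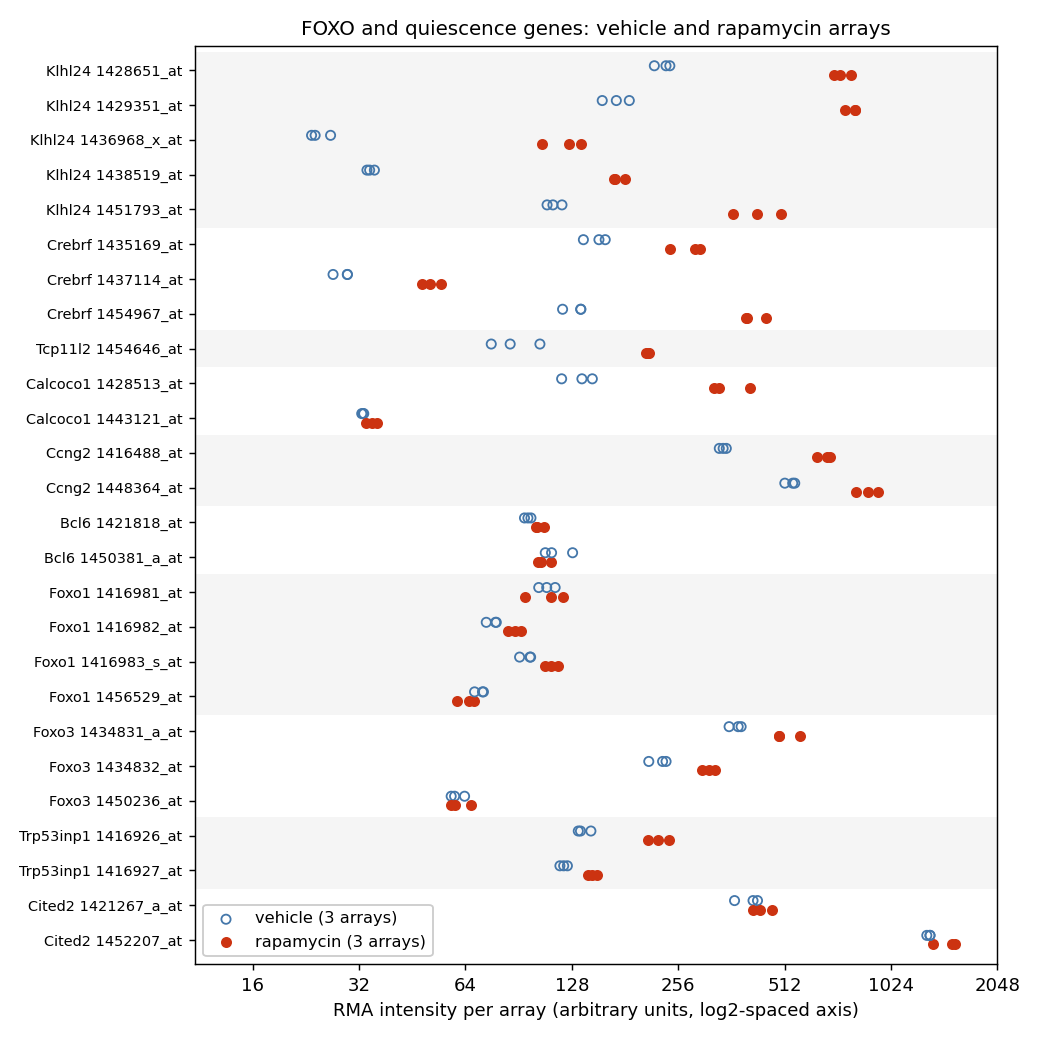
RMA intensity (arbitrary units, log2-spaced axis) of each of the 26 probe sets on the 3 vehicle arrays (open circles) and the 3 rapamycin arrays (filled circles). The groups are far apart for the 5 Klhl24 probe sets, whose changes run from 1.68 to 2.32 on the log2 scale, and they overlap for 1 probe set each of Bcl6, Cited2, Foxo1 and Foxo3.

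Among the forkhead factors, Foxo1 changed little, and Foxo3 rose in 2 of its 3 probe sets. Foxo1, a FOXO factor that drives genes of metabolism and cell cycle arrest, was read by 4 probe sets that did not move together. Its probe set 1416983_s_at read 97.9, 97.4 and 91.1 with vehicle and 111, 117 and 108 with rapamycin, a log2 change of 0.23 (SE 0.06). Probe set 1416982_at read 73.3, 78.2 and 77.9 with vehicle and 88.2, 84.3 and 91.9 with rapamycin, a log2 change of 0.20 (SE 0.06). In both, every rapamycin array lay above every vehicle array. With spike scaling these changes were 0.04 and 0.02 and were no longer called, and that of 1416982_at also lost its call without vehicle replicate 1 and without rapamycin replicate 3. The other Foxo1 probe sets went the other way or nowhere. Probe set 1456529_at read 71.5, 72.0 and 67.9 with vehicle and 60.4, 67.5 and 65.6 with rapamycin, a log2 change of -0.13 that was not called (called lower with spike scaling, -0.32). Probe set 1416981_at overlapped between the groups with a change of -0.00.

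Foxo3, the FOXO factor known for stress resistance and for genes of autophagy, was brighter on rapamycin arrays in 2 of its 3 probe sets. Probe set 1434831_a_at read 378, 386 and 357 with vehicle and 494, 567 and 493 with rapamycin, a log2 change of 0.47 (SE 0.07) or 1.39-fold. Probe set 1434832_at read 211, 231 and 236 with vehicle and 299, 325 and 313 with rapamycin, a log2 change of 0.46 (SE 0.06) or 1.38-fold. The groups did not overlap in either, and both changes were 0.28 and still called with spike scaling. The third, 1450236_at, stayed near 60 on all arrays, with 59.6, 58.3 and 63.6 for vehicle and 66.4, 58.2 and 59.8 for rapamycin, and its groups overlapped.

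Bcl6, a transcriptional repressor that is a known FOXO target and holds back cyclin genes, showed no call in either of its 2 probe sets. Probe set 1421818_at read 98.1, 94.0 and 96.1 with vehicle and 102, 101.5 and 107 with rapamycin, a log2 change of 0.11 that turned to -0.08 with spike scaling, without a call in either. Probe set 1450381_a_at read 108, 112 and 129 with vehicle and 111, 103 and 104 with rapamycin, a log2 change of -0.13 (called lower with spike scaling, -0.32). Its groups overlapped, and the 2 Bcl6 probe sets differed in sign.

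Among the regulators of other transcription factors, Crebrf was higher on every rapamycin array in all 3 of its probe sets. Its product promotes the breakdown of CREB3, a factor of the unfolded protein response. Probe set 1454967_at read 136, 121 and 136 with vehicle and 399, 453 and 399 with rapamycin, a log2 change of 1.67 (SE 0.07) or 3.19-fold, rank 8 from the top of all 45037. Probe set 1435169_at read 138, 153 and 159 with vehicle and 285, 295 and 243 with rapamycin, a log2 change of 0.87 (SE 0.08). The dimmest, 1437114_at, read 29.7, 29.7 and 27.0 with vehicle and 48.3, 54.5 and 50.8 with rapamycin, a log2 change of 0.83 (SE 0.06). All 3 were also called with spike scaling, at 0.64 to 1.49. The probe sets of Crebrf differed in size of change and not in direction.

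Cited2 encodes a protein that binds the coactivators CBP and p300 and competes there with HIF-1alpha. Its probe set 1452207_at read 1293, 1320 and 1320 with vehicle and 1347, 1553 and 1520.3 with rapamycin, a log2 change of 0.17 (SE 0.06). All 3 rapamycin arrays lay above vehicle, replicate 1 only narrowly, and the change was not called. It was called with quantile normalization over all 12 arrays (0.23), with the intensity filter, with an intensity-dependent prior and without rapamycin replicate 1, and it was -0.02 with spike scaling. Probe set 1421267_a_at read 417, 369 and 429 with vehicle and 415, 472 and 435 with rapamycin, a log2 change of 0.12 with overlapping groups. It was called with quantile normalization over all 12 arrays (0.20) and was -0.07 with spike scaling.

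Ccng2 encodes cyclin G2, an unconventional cyclin that accumulates in arrested cells and is a known FOXO target. Probe set 1416488_at read 335, 350.1 and 343 with vehicle and 632, 686 and 677 with rapamycin, a log2 change of 0.96 (SE 0.06) or 1.94-fold. Probe set 1448364_at read 547, 539.6 and 513 with vehicle and 816, 941 and 882 with rapamycin, a log2 change of 0.72 (SE 0.06) or 1.65-fold. Both cyclin G2 probe sets were well separated between the groups, and with spike scaling the changes were 0.77 and 0.53, both called.

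Trp53inp1 and Calcoco1 belong to autophagy. Trp53inp1, a p53-induced nuclear protein that also binds LC3 on autophagosomes, read 133, 135 and 145 with vehicle and 210.4, 241 and 225 with rapamycin in probe set 1416926_at, a log2 change of 0.71 (SE 0.06). Its second probe set, 1416927_at, read 121, 124 and 118 with vehicle and 142, 146 and 151 with rapamycin, a log2 change of 0.27 (SE 0.05). Neither overlapped between the groups, and with spike scaling the first kept its call at 0.52 while the second lost it at 0.08. Calcoco1, a coactivator of nuclear receptors and a receptor for autophagy of the endoplasmic reticulum, read 146, 137 and 119.8 with vehicle and 324, 407 and 334 with rapamycin in probe set 1428513_at. That is a log2 change of 1.40 (SE 0.09) or 2.64-fold, rank 12 of all probe sets. Its dim probe set 1443121_at read 32.9, 32.6 and 33.0 with vehicle and 34.9, 36.0 and 33.6 with rapamycin, a log2 change of 0.08 that was not called (-0.10 with spike scaling).

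Klhl24, the adaptor that brings substrates such as keratin 14 to a CUL3 ubiquitin ligase, had the top 4 ranks of all 45037 probe sets. Probe set 1438519_at read 33.7, 35.4 and 34.3 with vehicle and 169, 168 and 180.5 with rapamycin, a log2 change of 2.32 (SE 0.05) or 5.01-fold, rank 1. Probe set 1436968_x_at, whose suffix marks probes that can also match other transcripts, read 26.6, 24.0 and 23.5 with vehicle and 105, 125 and 136 with rapamycin, a log2 change of 2.30 (SE 0.09). Probe set 1429351_at read 156, 186 and 171 with vehicle and 759, 809.5 and 811 with rapamycin, a log2 change of 2.22 (SE 0.07). No array of either group came near the other in any of these. Probe set 1451793_at read 120.0, 113 and 109 with vehicle and 365, 499 and 427 with rapamycin, a log2 change of 1.91 (SE 0.09). Probe set 1428651_at, at rank 7, read 236, 219 and 242 with vehicle and 736, 788 and 706 with rapamycin, a log2 change of 1.68 (SE 0.06). All 5 were called with spike scaling too, at 1.49 to 2.14. Tcp11l2, read by the single probe set 1454646_at, gave 85.7, 75.7 and 104 with vehicle and 207, 210.3 and 211 with rapamycin, a log2 change of 1.26 (SE 0.09) or 2.39-fold, rank 23. Its vehicle arrays were spread more widely than its rapamycin arrays, and the groups did not overlap. With spike scaling its change was 1.07, still called.

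**Figure D2:**
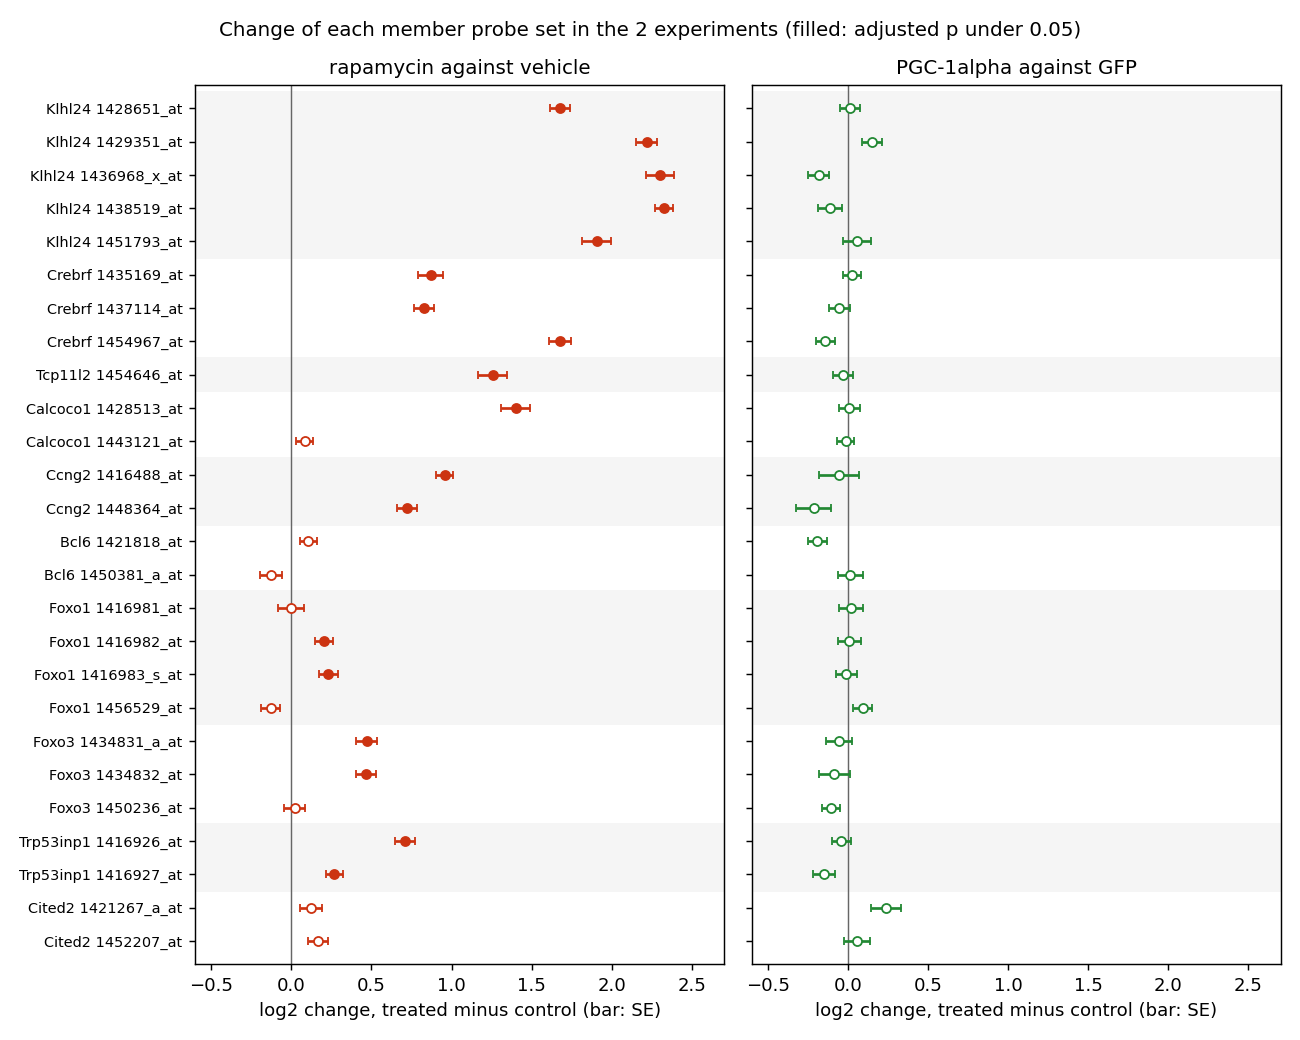
Log2 change with its SE (bars) of each of the 26 probe sets for rapamycin against vehicle (left) and PGC-1alpha against GFP (right), 3 arrays per group, with filled points at an adjusted p under 0.05. On the left 18 points are filled and reach 2.32, and on the right 0 are filled and all lie between -0.21 and 0.24.

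The PGC-1alpha values were not used to choose the genes, so that experiment could be tested. Earlier results of these data were known when the genes and lists were chosen, so the choice may not have been blind to the PGC-1alpha arrays. None of the 10 genes passed the test there: limma called 0 of 26 probe sets higher and 0 lower, against 0.997% and 0.955% of all probe sets. At an unadjusted p under 0.05 there were 6 of 26 (23.1%), against 11.6% of all. The changes ran from -0.21 to 0.24 on the log2 scale with a median of -0.02, and the 95% confidence intervals together spanned -0.45 to 0.44, so no interval reached a 1.5-fold change in either direction. All 3 PGC-1alpha arrays lay above GFP in 2 probe sets, against 7.76% of all, and below it in 5, against 7.91%. The 7 together compare with 15.7% of all probe sets without overlap.

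**Figure D3:**
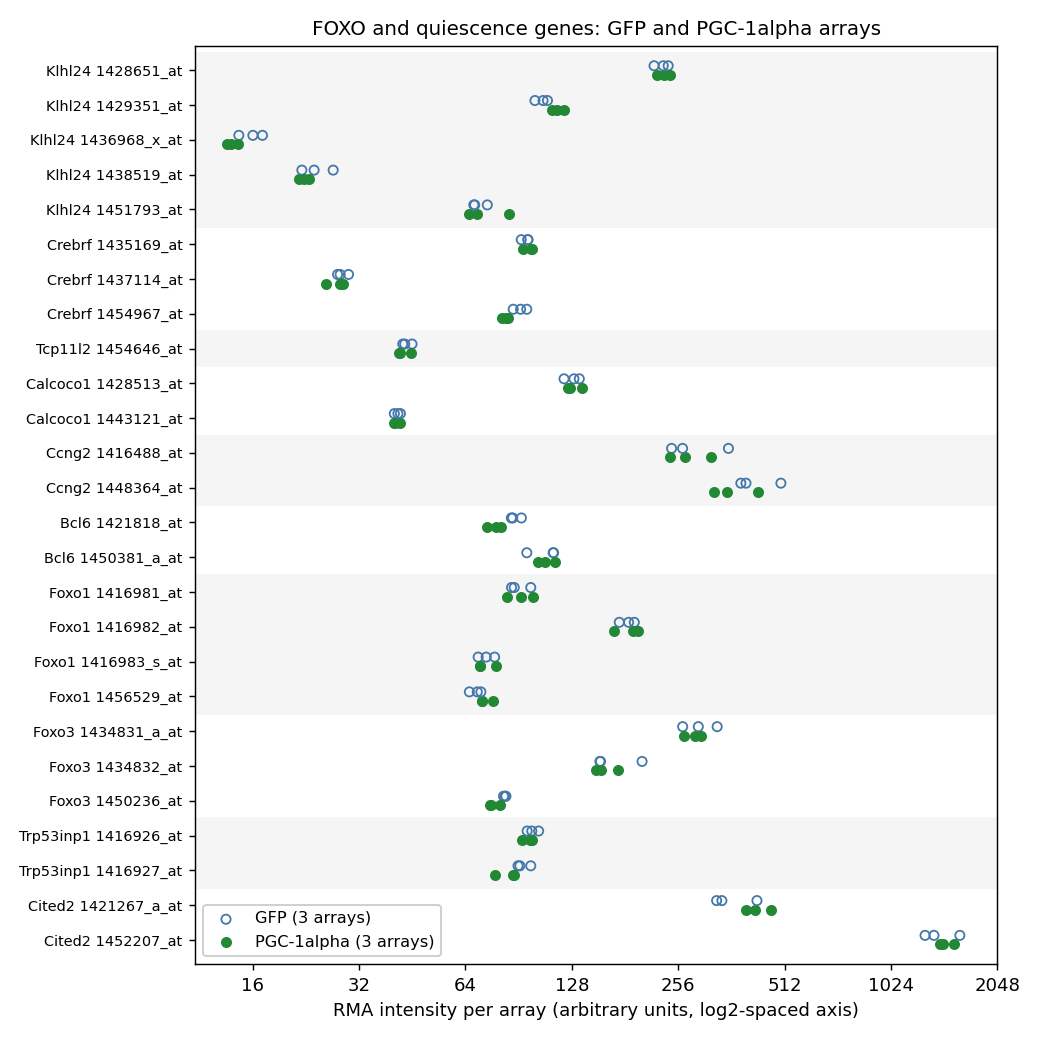
RMA intensity (arbitrary units, log2-spaced axis) of each of the 26 probe sets on the 3 GFP arrays (open circles) and the 3 PGC-1alpha arrays (filled circles). The groups overlap in 19 of the 26 probe sets, and where they do not, as for Bcl6 1421818_at, the distance between them is small.

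Klhl24, the gene highest with rapamycin, gave probe sets of opposite sign with PGC-1alpha. Probe set 1429351_at read 106, 101 and 109 with GFP and 121, 113 and 116.5 with PGC-1alpha, a log2 change of 0.15 (95% interval 0.02 to 0.28, limma adjusted p = 0.321). Probe set 1436968_x_at read 17.1, 14.6 and 16.02 with GFP and 13.9, 13.5 and 14.5 with PGC-1alpha, a log2 change of -0.18 (95% interval -0.33 to -0.04, limma adjusted p = 0.272). All PGC-1alpha arrays lay above GFP in the first and below it in the second, and the other 3 Klhl24 probe sets overlapped. Of these, 1428651_at read 219, 239.8 and 232 with GFP and 233, 222 and 243 with PGC-1alpha, a change of 0.02 (95% interval -0.12 to 0.15, limma adjusted p = 0.966).

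Crebrf, the regulator of CREB3, was lower in probe set 1454967_at on each PGC-1alpha array, with 87.4, 95.4 and 91.7 for GFP and 84.4, 83.2 and 81.1 for PGC-1alpha. The change of -0.14 (95% interval -0.27 to -0.01) did not pass the test, with a limma adjusted p of 0.351, and the other 2 Crebrf probe sets were at 0.03 and -0.05. Tcp11l2 read 42.6, 43.1 and 45.2 with GFP and 41.4, 41.8 and 44.9 with PGC-1alpha, a change of -0.03 (95% interval -0.16 to 0.10, limma adjusted p = 0.928). Calcoco1 read 129.8, 134 and 122 with GFP and 125, 137 and 127 with PGC-1alpha in 1428513_at, a change of 0.01 (95% interval -0.13 to 0.15, limma adjusted p = 0.981). For these last 2 genes the groups overlapped, and the difference from their rapamycin changes was not tested.

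The Ccng2 probe sets and the Foxo3 probe sets 1434832_at and 1434831_a_at varied widely between replicates here. Ccng2 1416488_at read 245, 263 and 355 with GFP and 268, 242 and 316 with PGC-1alpha, a change of -0.05 (95% interval -0.33 to 0.22, limma adjusted p = 0.94). Ccng2 1448364_at read 398, 385 and 499.7 with GFP and 324, 353 and 430.1 with PGC-1alpha, a change of -0.21 (95% interval -0.45 to 0.03, limma adjusted p = 0.511). In both groups replicate 3 was the highest array for cyclin G2. Foxo3 1434832_at was likewise highest in replicate 3 of both groups, with 154, 154 and 202 for GFP and 150.2, 155 and 173 for PGC-1alpha, a change of -0.08 (limma adjusted p = 0.859). Foxo3 1434831_a_at read 292, 264 and 330 with GFP and 286, 266 and 297 with PGC-1alpha, a change of -0.06 (95% interval -0.23 to 0.12, limma adjusted p = 0.891). The remaining Foxo3 probe set, 1450236_at, was tight, with 83.3, 82.8 and 82.0 for GFP and 74.9, 75.8 and 80.05 for PGC-1alpha. All its PGC-1alpha arrays lay below GFP, and the change was -0.11 (95% interval -0.23 to 0.02, limma adjusted p = 0.533). Over the 26 probe sets, replicate 3 was the highest of the GFP group in 12 and of the PGC-1alpha group in 15, against 39.0% and 30.9% of all probe sets.

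Foxo1 did not pass the test in any of its 4 probe sets, with changes between -0.01 and 0.09. Its brightest, 1416982_at, read 192, 185 and 174 with GFP and 168, 191 and 198 with PGC-1alpha, a change of 0.01 (95% interval -0.15 to 0.16, limma adjusted p = 0.985). Bcl6 1421818_at had the smallest unadjusted p of the 26, with 86.3, 87.1 and 92.2 for GFP and 73.9, 78.2 and 80.8 for PGC-1alpha. Its groups did not overlap, and the change of -0.19 (95% interval -0.32 to -0.06) had a limma adjusted p of 0.175. The other Bcl6 probe set overlapped at a change of 0.02, so the repressor again gave unlike readings in its probe sets.

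Trp53inp1 1416927_at read 90.2, 98.0 and 91.2 with GFP and 87.1, 77.4 and 88.0 with PGC-1alpha, a change of -0.15 (limma adjusted p = 0.427), while 1416926_at overlapped at -0.04. Cited2, the CBP and p300 binder, had the highest change of the 26 in 1421267_a_at, which read 329, 340.2 and 428 with GFP and 468, 421 and 397 with PGC-1alpha. That is a log2 change of 0.24 (95% interval 0.03 to 0.44) with a limma adjusted p of 0.325, and the groups overlapped through GFP replicate 3. Without that array the change was 0.36 (SE 0.07) with a limma adjusted p of 0.013, the only call of any of the 26 probe sets in any alternative for this comparison. Among the fits that left out 1 array, calls over all probe sets were also most numerous without this array. Nothing is read from this 1 call. The other Cited2 probe set, 1452207_at, changed by 0.06 (limma adjusted p = 0.886).

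The wider FOXO pathway was described through 7 gene lists, each gene read by its brightest probe set. With rapamycin 11.3% of 18193 genes were called higher and 18.0% lower by limma, and with PGC-1alpha 1.41% and 0.594%. The shares of all genes with spike scaling were 3.32% and 46.1% for rapamycin, and 0.929% and 0.0220% for PGC-1alpha. The lists share some genes with each other, and each leaves out the 10 genes themselves.

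Upstream of FOXO, among insulin and growth factor receptors, PI3K and AKT enzymes and proteins that export or degrade FOXO, 8 of 29 measured genes rose with rapamycin and 10 fell, with a median change of -0.02 (2 and 15 with spike scaling). Igf1r, the receptor for insulin-like growth factors, rose by 0.53 on the log2 scale. Trib3, an AKT inhibitor, changed by -0.86, Skp2, which marks FOXO1 for degradation, by -0.64, and the nuclear exporter Xpo1 by -0.60. None of the 29 passed the test with PGC-1alpha in its brightest probe set, while 2 of 4 probe sets of Pik3r1 and 1 of 7 of Ywhaz, named after their values were seen, were called lower. The smallest p there belonged to Akt1, with a change of 0.22 (limma adjusted p = 0.118), and Skp2, with -0.26 (limma adjusted p = 0.123).

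Of 33 further FOXO targets listed from textbook knowledge, 13 rose with rapamycin and 5 fell, with a median of 0.04. With spike scaling 6 rose and 11 fell, against 3.32% and 46.1% of all genes. Pink1, a kinase that marks damaged mitochondria, rose by 0.82, and the autophagosome protein gene Map1lc3b by 0.63. Bnip3, a receptor for autophagy of mitochondria that is also a HIF target, changed by -1.38 and the stress gene Sesn3 by -0.68. With PGC-1alpha 1 of the 33 rose and 2 fell. Sod2, the mitochondrial superoxide dismutase, rose by 0.46 (limma adjusted p = 0.0060) in 1 of its 4 probe sets. Bcl2l11, which encodes the death protein BIM, changed by -0.53 (limma adjusted p = 0.00084), with 3 of its 5 probe sets called lower, and Sesn3 by -0.49 (limma adjusted p = 0.018), with 1 of 2. With spike scaling neither fall was called.

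Among 26 further genes of quiescence and growth arrest, 8 rose with rapamycin and 10 fell, with a median of -0.01 (5 and 13 with spike scaling). Pdcd4, an inhibitor of translation, rose by 1.10 and Mxd4, a MYC antagonist, by 0.80, whereas the antiproliferative gene Tob2 changed by -0.87 and Lin54, a subunit of the DREAM complex, by -0.78. With PGC-1alpha Gas6, a growth arrest-specific ligand, rose by 0.52 (limma adjusted p = 0.0022) and Tob2 by 0.30 (limma adjusted p = 0.041), each in 1 of its probe sets. With spike scaling the Gas6 call held and the Tob2 call was lost (limma adjusted p = 0.095). A probe set of Btg1 other than its brightest was called lower. The list of proliferation genes moved one way with rapamycin: 0 of 24 rose and 22 fell, with a median of -0.60 (0 and 24 with spike scaling). Cdc6, whose product acts at replication origins, changed by -1.40, Ccne2 by -0.96, Rrm2 by -0.92 and Aurka by -0.86. None of the 24 passed the test with PGC-1alpha in its brightest probe set (another probe set of Ccne1 was called higher), where the smallest p belonged to Ccna2 (0.20, limma adjusted p = 0.216) and Ccne1 (0.18, limma adjusted p = 0.219).

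**Figure D4:**
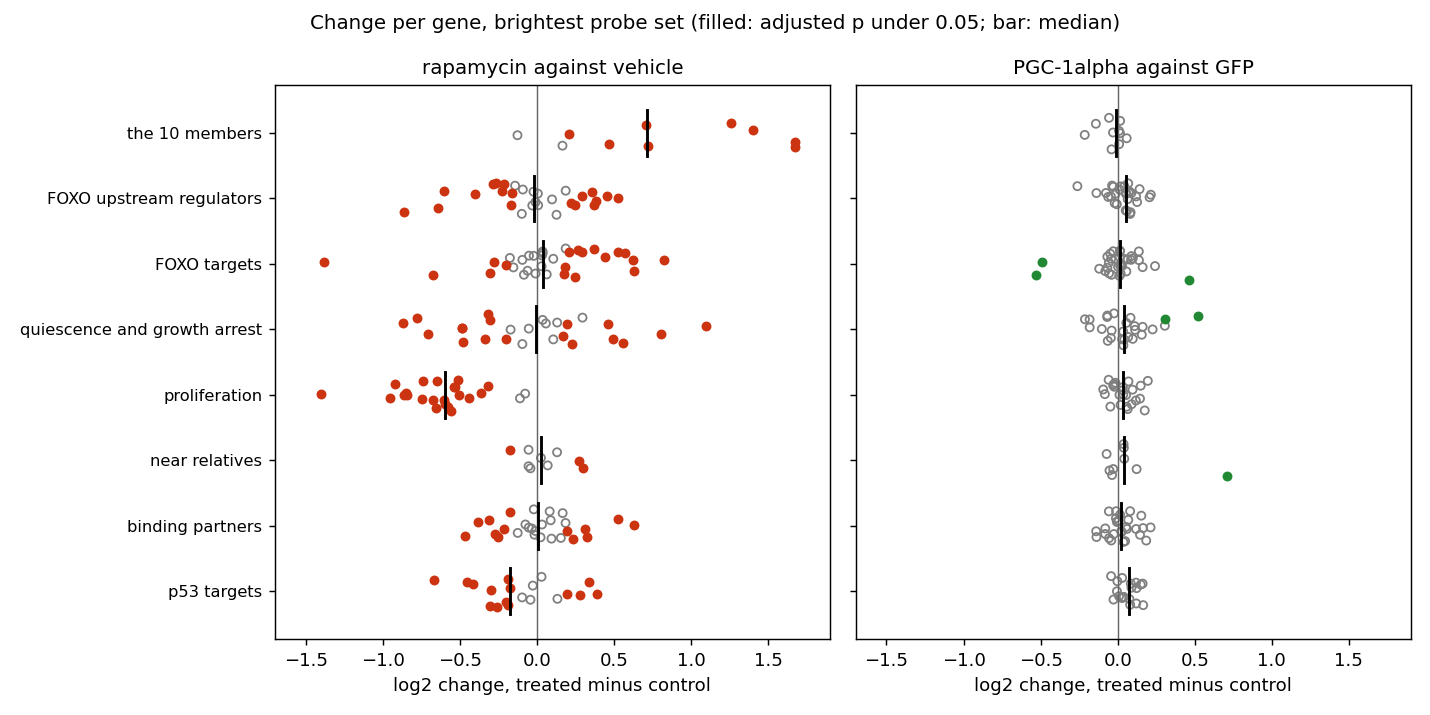
Log2 change of each gene's brightest probe set for rapamycin against vehicle (left) and PGC-1alpha against GFP (right), for the 10 genes (top) and the 7 lists, with filled points at an adjusted p under 0.05 and bars at the median. Proliferation genes lie left of 0 with rapamycin, with a median of -0.60, and the lists of FOXO targets and of quiescence genes spread to both sides.

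The near relatives of the 10 genes moved little with rapamycin, and 2 of 9 rose while 1 fell (0 and 4 with spike scaling). Tax1bp1, an autophagy receptor related to Calcoco1, rose by 0.30 (limma adjusted p = 0.00079), and Trp53inp2, the paralog of Trp53inp1, by 0.27 (limma adjusted p = 0.012). Ccng1, which encodes cyclin G1, changed by -0.17 (limma adjusted p = 0.047), opposite in sign to cyclin G2. The third FOXO gene measured, Foxo4, was at 0.13 (limma adjusted p = 0.092), and the remaining relatives did not pass the test, with Cited1 at -0.05, Cited4 at -0.04, Calcoco2 at 0.07, Tcp11 at 0.03 and Bcl6b at -0.05. With PGC-1alpha Trp53inp2 was the only one of the 9 to pass, and it rose by 0.71 (limma adjusted p = 0.00049), from a mean of 415 to 678, in 1 of its 2 probe sets.

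Of 28 measured genes for known binding partners of the 10 proteins, 6 rose with rapamycin and 7 fell (2 and 12 with spike scaling). Map1lc3b and Gabarapl1, which encode ATG8 proteins that TRP53INP1 and autophagy receptors bind, rose by 0.63 and 0.53. Named after their values were seen, the other ATG8 genes of the list rose as well, Map1lc3a by 0.32, Gabarap by 0.31 and Gabarapl2 by 0.24, and these 3 were not called with spike scaling. Carm1, a methyltransferase and coactivator, changed by -0.47 and Cul3, the ligase scaffold that KLHL24 binds, by -0.38. None of the 28 passed with PGC-1alpha, where Carm1 (0.21, limma adjusted p = 0.117) and Nr3c1 (0.16, limma adjusted p = 0.335) had the smallest p. Of 19 p53 targets other than Trp53inp1, 4 rose with rapamycin and 10 fell, with a median of -0.17 (0 and 12 with spike scaling). Aen changed by -0.67, Sesn2 by -0.45 and Tigar by -0.42, while the death receptor gene Fas rose by 0.39 (not called with spike scaling). None of the 19 passed with PGC-1alpha, where the smallest p belonged to Sesn2 (0.15, limma adjusted p = 0.326) and Polk (0.17, limma adjusted p = 0.335).

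The profiles of the 10 genes over the 12 arrays, each read by its brightest probe set and centred within each experiment, fell into degrees of likeness that describe these arrays. Klhl24 correlated with Crebrf at r = 0.99, with Tcp11l2, Calcoco1 and Trp53inp1 at 0.98, with Foxo3 at 0.88 and with Ccng2 at 0.87. It correlated with Foxo1 at 0.71, with Cited2 at 0.56 and with Bcl6 at -0.42, and Foxo1 correlated with Foxo3 at 0.51. For Foxo1 the probe set brightest over all 12 arrays was 1416982_at. With vehicle it averaged 76.5, against 109 for 1416981_at, whose rapamycin change was -0.00. The points share the arrays and their normalization, and they include the difference between rapamycin and vehicle by which the genes were chosen. The non-member genes closest to the mean profile of the 10 were Igdcc4 (r = 0.996), Bphl (0.991), C1s1 (0.991), Lcn2 (0.990) and Hbp1 (0.989), and 219 of 18183 genes reached 0.95. Closest to Klhl24 were Bphl and Igdcc4, both at 0.991, with 178 genes at or above 0.95. Closest to Foxo3 were Phf14 (0.986) and Shisa5 (0.983), with 103 genes at or above 0.95. For Foxo1, whose change was small, 0 genes reached 0.95, and Mospd4 (0.920) and Gata5os (0.919) came closest.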

How the data were processed

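Intensities were deposited on a linear scale: per the labels, the authors summarised the arrays by RMA at default settings in BioConductor 1.2, 1 batch per experiment, which includes quantile normalization and so hides a shift common to most genes. Control probe sets (64 of 45101) were left out and log2 of the intensity was taken with no pseudocount and no filter on low values, so all 26 probe sets of the 10 genes were tested. Array medians were 77.5 to 81.0. The 3 arrays per group limit the precision. Each p-value weighs a group difference against the spread between these arrays, which limma moderates over all probe sets. A limma (3.58.1, R 4.3.3) model was fitted per experiment to its 6 arrays, with Benjamini-Hochberg adjustment over 45037 probe sets, a threshold of 0.05 and 95% confidence intervals unadjusted for multiple tests. On simulated data with 200 changed probe sets the fit recovered 78% (rapamycin) and 75% (PGC-1alpha) of log2 changes of 0.5, and 100% and 99% of changes of 1. False calls numbered 7 and 12. The simulated noise was independent between probe sets, and fewer probe sets were changed than were called in either experiment. These rates therefore need not hold for the real arrays. Gene names came from the platform annotation (34945 probe sets with 1 symbol, 932 with several, 9160 with none listed), updated by Entrez ID for 34741. For lists a gene was read by its brightest probe set over all arrays. The genes and lists were chosen with earlier results of these data known. All probe sets of the 10 genes were named, and of each list up to 4 called genes with the largest change and the largest opposite one, or, in a list without a call, the 2 of smallest p. The TAAACA core and the choice of printed promoters were added after the first search was seen. The main fit did not pair arrays by replicate number, and whether the numbers mark pairs was not settled. Alternatives were spike scaling, quantile normalization over 12 arrays, a pseudocount of 16, a mean intensity of at least 50 and an intensity-dependent prior. Others were a fit of all 4 groups, a replicate block, a list gene called by most of its probe sets, and leaving out each array.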

Additional observations from a re-analysis of the deposited data

How the results depend on the processing

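The number of the 26 probe sets called higher with rapamycin ranged from 15 to 20 over all alternatives and from 17 to 19 when 1 array was left out. With scaling to the spike controls, 1448 of all probe sets were higher and 18556 lower with rapamycin, and 2 of the 26 were lower. In the lists it left 2 upstream regulators higher, 6 FOXO targets higher and 11 lower, 5 quiescence genes higher, 0 near relatives higher and 4 lower, 2 binding partners higher and 12 lower, and 0 p53 targets higher. With a gene called when most of its probe sets were called in 1 direction, 3 FOXO targets and 2 binding partners were lower and 2 p53 targets higher. Of all genes, 7.95% were then higher and 13.1% lower. For PGC-1alpha, 449 of all probe sets were higher and 430 lower, and 296 and 29 with spike scaling, 295 higher with the pseudocount, and 807 and 678 in the fit of 4 groups. Leaving out 1 array gave 113 to 1957 higher and 166 to 880 lower, the highest both without GFP replicate 3, the lowest without GFP replicate 2 and without PGC-1alpha replicate 3, and 0 to 1 of the 26 higher. With spike scaling 0 FOXO targets were lower and 1 quiescence gene higher. Called by most of their probe sets, 0 FOXO targets were higher and 1 lower, and 0 quiescence genes and 0 near relatives were higher. Of all genes, 0.731% were then higher and 0.159% lower. The cause of these shifts was not tested. No called change of the 26 probe sets changed sign. With spike scaling the changes of Ulk1, Pdk4, Lin37 and Sparc, called higher with rapamycin, were -0.01, -0.01, -0.02 and -0.00 and not called. The replicate block (pairing arrays by number) gave 18 of the 26 higher and 0 lower with rapamycin, with 5128 and 6243 of all probe sets, and 0 of the 26 with PGC-1alpha, with 436 and 395 of all. Deviations of same-numbered arrays correlated at -0.05 to 0.07 and at -0.13 to 0.23, and not every array correlated best with its own number. Few arrays and dim signal limit Calcoco1 1443121_at and other dim probe sets: 24 of the 26 passed the intensity filter with rapamycin and 21 with PGC-1alpha.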
